A study of Mus musculus with 2 samples.

Results

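The genes described here are 10 cell-surface receptors for metabolites made by gut microbes or released from food, most of them described in gut endocrine cells. They were taken by symbol, as a fixed list of *Olfr558*, *Olfr78*, *Ffar1*, *Ffar2*, *Ffar3*, *Ffar4*, *Gpbar1*, *Lpar5*, *Casr* and *Gper1*, from 23532 genes with an estimate in both libraries. All 10 were found. *Olfr78* has no row of its own: it is joined with its neighbour *Olfr560*, and the joined row was counted once. The study set the transcriptome of enterochromaffin cells, the serotonin-storing endocrine cells of the gut lining, beside that of the other epithelial cells in the same cultures. Small-intestinal crypts of ChgA-GFP reporter mice, in which green fluorescent protein marks cells that use the chromogranin A gene, were grown as organoids in Matrigel with epidermal growth factor, noggin and R-spondin. Dissociated cells were sorted into a GFP+ fraction, about 1% of the epithelial cells, and the GFP- remainder, so both fractions carry the reporter and saw the same medium. Each fraction gave 1 library of amplified polyadenylated RNA. The sources used here do not give the number or age of the mice. With 1 library per fraction there is no replicate error, no test between fractions and no p-value, and differences are given by their size in these 2 libraries.

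All 10 genes encode receptors with a bundle of membrane helices that couple to G proteins. Short-chain fatty acids from bacterial fermentation are sensed by *Ffar2* and *Ffar3*, and are also ligands of the odorant receptors *Olfr78* and *Olfr558*, which are expressed outside the nose as well. Medium- and long-chain fatty acids act on *Ffar1* and *Ffar4*, bile acids on *Gpbar1*, lysophosphatidic acid and protein digests on *Lpar5*, calcium and aromatic amino acids on *Casr*, and oestrogens on *Gper1*. In the gut such receptors are best known for controlling the release of hormones and serotonin from endocrine cells.

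Levels are in FPKM, the fragments of a transcript per kilobase of its length on a scale common to the library, which allows genes of different length to be compared. Differences are log2((FPKM + 1) in GFP+ / (FPKM + 1) in GFP-), and genes were set apart at a difference of 2 or more in size (4-fold). The FPKM of odorant receptor genes with a single exon came in exact steps, which gave the number of sequenced fragments behind a value. 1 fragment was worth the same in both libraries, 63.7 fragments per FPKM and kilobase of effective length, that is, of transcript length less 270 bases in GFP- and 268 bases in GFP+. A ratio of deposited FPKM is therefore nearly a ratio of fragment numbers, and the sources used here do not give the sequencing depth. For the 5563 genes that reached 10 FPKM in GFP- and in GFP+ alike, the log2 ratio had a median of -0.50, so differences near that value are those of a typical well-expressed gene. Setting this median to 0 multiplies GFP+ by 1.41, and giving both libraries the same summed FPKM multiplies it by 1.54. Fragment intervals below are 95%, take fragments as independent and cover only the counting error of fragments. The cDNA was amplified and copies of 1 molecule cannot be recognised, so the error in the number of molecules can be larger than these intervals. In sorted bulk RNA, fewer cells that carry a transcript and less of it per cell cannot be told apart.

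The receptors fell into 3 levels in GFP+. *Olfr558*, the *Olfr560* and *Olfr78* row and *Ffar2* were the most abundant, at 155, 74.4 and 74.2 FPKM. *Lpar5*, *Ffar4* and *Gper1* followed at 11.5, 6.82 and 6.22 FPKM. *Gpbar1*, *Ffar3*, *Ffar1* and *Casr* were all below 1 FPKM, at 0.783, 0.127, 0.0742 and 0.00368 FPKM. The order in GFP- was another one, led by *Lpar5* at 22.8 FPKM, *Ffar4* at 9.06 FPKM and *Ffar2* at 3.56 FPKM, with the other 7 rows below 1 FPKM. Without replicates, neighbours in these orders cannot be compared beyond counting error.

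**Figure D1:**
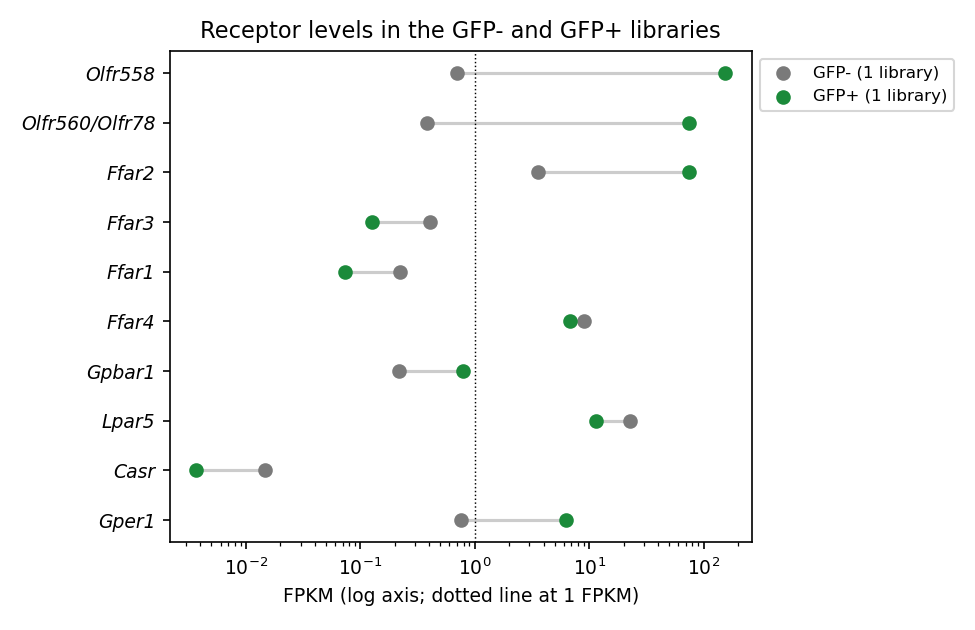
FPKM of each receptor row (log axis) in the GFP- library (grey) and the GFP+ library (green), 1 library each, so there are no error bars. *Olfr558*, the *Olfr560* and *Olfr78* row and *Ffar2* reach 74 to 155 FPKM in GFP+, while *Lpar5*, *Ffar4*, *Ffar3*, *Ffar1* and *Casr* lie lower in GFP+ than in GFP-.

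Of the 10 rows, 4 passed the 4-fold mark upwards in GFP+ and 0 downwards. The same held upwards for 3.57% and downwards for 2.32% of all 23532 genes. Among the 11868 genes that reached 1 FPKM in either library, the shares were 7.09% and 4.59%. Of the receptor rows, 6 reached 1 FPKM in either library, and 3 of these 6 were below 1 FPKM in GFP- and passed through their GFP+ value, which fixes the sign of their difference. The median difference was 3.04 over these 6 rows and 0.27 over all 10, beside -0.12 over the 11868 genes and 0 over all 23532. The members were chosen with results of these data known, so these counts describe the list.

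*Olfr558* had the highest level and the largest difference of the 10. It is listed at chromosome 7, 102702323 to 102712054 (mm10), and GENCODE M21 places it on the plus strand, with all of its coding bases in 1 exon. It was at 0.704 FPKM in GFP- against 155 in GFP+, with deposited upper bounds of 1.92 and 362 FPKM and lower bounds of 0. These values stand for 119 fragments (interval 98.6 to 142) and 26139 fragments (25823 to 26458), a ratio of 220 (183 to 265). Within its own library, the gene moved from above 53.1% of genes in GFP- to above 98.2% in GFP+. The log2 difference was 6.51.

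The joined row of *Olfr560* and *Olfr78* (chromosome 7, 102740721 to 102759471) was at 0.380 FPKM in GFP- against 74.4 in GFP+. That is 196-fold, or 5.77 on the log2 scale. Both genes lie on the minus strand, and *Olfr560* shares 926 exonic bases with *Olfr78*, so the row cannot be divided between them. Depending on the transcript model, the row stands for 16 to 76 fragments in GFP- and 3209 to 14890 in GFP+. It lay above 50.2% of genes in GFP- and 95.0% in GFP+.

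The sequences of *Olfr558* and *Olfr78* bear on whether their reads can be separated. Their coding regions, of 951 and 960 bases without the stop codon, were identical at 65.1% of 938 aligned bases, and the longest run of identical bases was 23. This run starts at coding base 349 of *Olfr558* and coding base 340 of *Olfr78*, in the stretch for the inner end of the third membrane helix, which is conserved among odorant receptors. It is shown in capitals below, 5′ to 3′ on the coding strand, with 12 bases on either side (GENCODE M21 transcripts). The windows are chr7:102709597-102709643 (plus strand) and chr7:102742628-102742674 (minus strand).
*Olfr558*: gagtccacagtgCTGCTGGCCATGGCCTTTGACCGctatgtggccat
*Olfr78*: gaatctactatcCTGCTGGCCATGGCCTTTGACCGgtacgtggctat
Of the 2992 different 50-base words in the *Olfr558* transcript, 52 occur in another annotated gene, all of them in the pseudogene *Gm45688*, which overlaps it on the other strand. Of 6026 words in the *Olfr78* transcripts, 14.2% occur elsewhere, mainly in *Olfr560*. No 50-base word was shared between *Olfr558* and *Olfr78*.

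The other odorant receptor genes had low values. Of 1110 odorant receptor rows besides these 2, 50 were above 0 in GFP- and 164 in GFP+, with summed levels of 2.87 and 14.1 FPKM. The highest value among them was 0.722 FPKM in GFP- and, for another row, 1.30 FPKM in GFP+. Within 150 kb of the start of *Olfr558* lie 13 further rows, all listed at 0 in GFP-. In GFP+, 4 of these 13 were above 0. *Olfr561*, the next row after the *Olfr560* and *Olfr78* row, was at 1.30 FPKM in GFP+, which stands for 56 fragments. Against the limit of 3 fragments that a value of 0 allows in GFP-, it was at least 18.7-fold higher. *Olfr554* had 13 fragments in GFP+, and *Olfr559* and *Olfr564* had 1 each. *Olfr557* and *Olfr33*, the nearest rows on either side of *Olfr558*, were listed at 0 in both libraries. Besides the 2 members and *Olfr561*, the odorant rows that reached 1 FPKM were *Olfr1532-ps1*, at 0.432 FPKM in GFP- against 1.24 in GFP+, and *Olfr165*, at 0.234 and 1.02 FPKM.

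**Figure D2:**
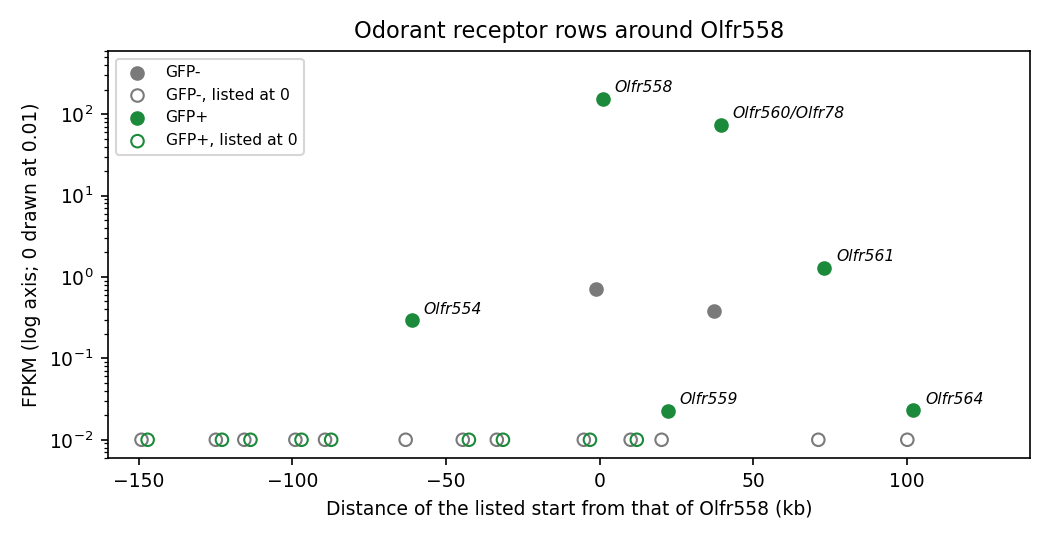
FPKM (log axis, with 0 drawn at 0.01 as an open circle) of the odorant receptor rows within 150 kb of the listed start of *Olfr558*, against distance in kb; grey is GFP- and green GFP+, and the paired points are set slightly apart. *Olfr558* and the *Olfr560* and *Olfr78* row stand at 155 and 74.4 FPKM in GFP+, while most rows between and around them are at 0 in both libraries.

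*Ffar2*, *Ffar3* and *Ffar1* lie side by side on chromosome 7, on the minus strand, and differed widely in level. The listed loci of *Ffar2* and *Ffar3* are 30.6 kb apart and those of *Ffar3* and *Ffar1* 4.39 kb. *Ffar2*, a receptor for acetate and propionate (30818357 to 30823775), was at 3.56 FPKM in GFP- against 74.2 in GFP+, 20.8-fold, or 4.04 on the log2 scale. It has 6 transcript models, and its values stand for 67 to 459 fragments in GFP- and 1404 to 9561 in GFP+. Its upper bounds were 9.24 and 159 FPKM. In GFP+ its level was close to that of the *Olfr560* and *Olfr78* row, at 74.2 and 74.4 FPKM, while in GFP- it was 3.56 against 0.380 FPKM.

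*Ffar3*, the other classical receptor for short-chain fatty acids (30854330 to 30856178), was at 0.406 FPKM in GFP- against 0.127 in GFP+. These are 35 fragments (24.4 to 48.7) and 11 fragments (5.49 to 19.7), a ratio of 0.314 (0.144 to 0.633). With the median ratio of well-expressed genes set to 0 the ratio was 0.444. *Ffar3* was thus on the opposite side of 1 from its neighbour *Ffar2*, at a level far below it in both libraries. The coding regions of *Ffar2* and *Ffar3* were identical at 63.7% of aligned bases with no run longer than 11, and no 50-base word of *Ffar3* occurs in another gene.

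*Ffar1*, a receptor for medium- and long-chain fatty acids that raises calcium (30860568 to 30861470), was at 0.223 FPKM in GFP- against 0.0742 in GFP+. These are 9 fragments (4.12 to 17.1) and 3 fragments (0.619 to 8.77), a ratio of 0.333 with an interval of 0.0580 to 1.34 that includes 1. The listed locus is 903 bases long, the length of the coding region with its stop codon, whereas the GENCODE M21 gene runs from 30857390 to 30861564. Fragments outside the listed locus are not in this value.

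*Ffar4*, the receptor for long-chain unsaturated fatty acids (chromosome 19, 38097079 to 38114263, plus strand), was well detected in both fractions. It was at 9.06 FPKM in GFP- against 6.82 in GFP+, with upper bounds of 21.5 and 16.5 FPKM. The fragment numbers were 648 (599 to 700) and 489 (447 to 534), a ratio of 0.755 (0.670 to 0.850). The log2 difference was -0.36, which turned to 0.08 with the median ratio set to 0 and 0.19 with one total. The direction for *Ffar4* therefore changes with the scaling.

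*Gpbar1*, the bile acid receptor that raises cyclic AMP (chromosome 1, 74278600 to 74279589, plus strand), was low in both libraries but higher in GFP+. It was at 0.218 FPKM in GFP- against 0.783 in GFP+. These are 10 fragments (4.80 to 18.4) and 36 fragments (25.2 to 49.8), a ratio of 3.6 (1.75 to 8.13). Its log2 difference of 0.55 is small because both values lie below the pseudocount. At a pseudocount of 0.1 it was 1.47, still below the 4-fold mark. The listed locus of 990 bases is again the coding length with its stop codon.

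*Lpar5*, a receptor for lysophosphatidic acid that also answers protein digests (chromosome 6, 125067920 to 125082472, plus strand), was the most abundant of the 10 in GFP-. It was at 22.8 FPKM in GFP- against 11.5 in GFP+, with upper bounds of 52.8 and 26.8 FPKM. Depending on the transcript model, these are 762 to 1727 and 386 to 873 fragments. The log2 difference was -0.93, and it was -0.46 and -0.35 under the other scalings. Of 5 other receptors for lysophosphatidic acid, *Lpar6* was at 25.8 FPKM in GFP- against 15.8 in GFP+, and *Lpar1* at 14.5 and 9.44 FPKM. *Lpar2*, *Lpar3* and *Lpar4* were below 1 FPKM in both.

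*Casr*, the calcium-sensing receptor (chromosome 16, 36493696 to 36562134, minus strand), was at the limit of detection. It was at 0.0147 FPKM in GFP- against 0.00368 in GFP+, which stand for 4 fragments (1.09 to 10.2) and 1 fragment (0.0253 to 5.57) on a transcript of 4534 bases. The ratio of 0.25 has an interval of 0.00508 to 2.53, so a difference was not detectable at this depth.

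*Gper1*, the membrane receptor for oestrogens and related plant compounds, was at 0.764 FPKM in GFP- against 6.22 in GFP+. The ratio was 8.14 and the log2 difference 2.03, just past the 4-fold mark. With a pseudocount of 5 the difference was 0.96 and no longer past it. The row is less certain than the others. Its listed locus (chromosome 5, 139359739 to 139460534) is shared by 6 rows, while the annotated gene covers 139423151 to 139427800 on the plus strand. It overlaps *3110082I17Rik* on the other strand, with no shared exonic base, and that gene was at 45.9 FPKM in GFP- against 18.1 in GFP+. The values stand for about 110 and 899 fragments on the 2537-base transcript, and they were not whole numbers of fragments. The deposited upper bound was 7.96 times the FPKM in GFP- and 3.16 times in GFP+, against medians of 2.51 and 2.63 for rows of 0.5 to 10 FPKM. The sources used here do not say whether the counting used strand, and the part of the neighbouring transcript in these values was not tested.

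**Figure D3:**
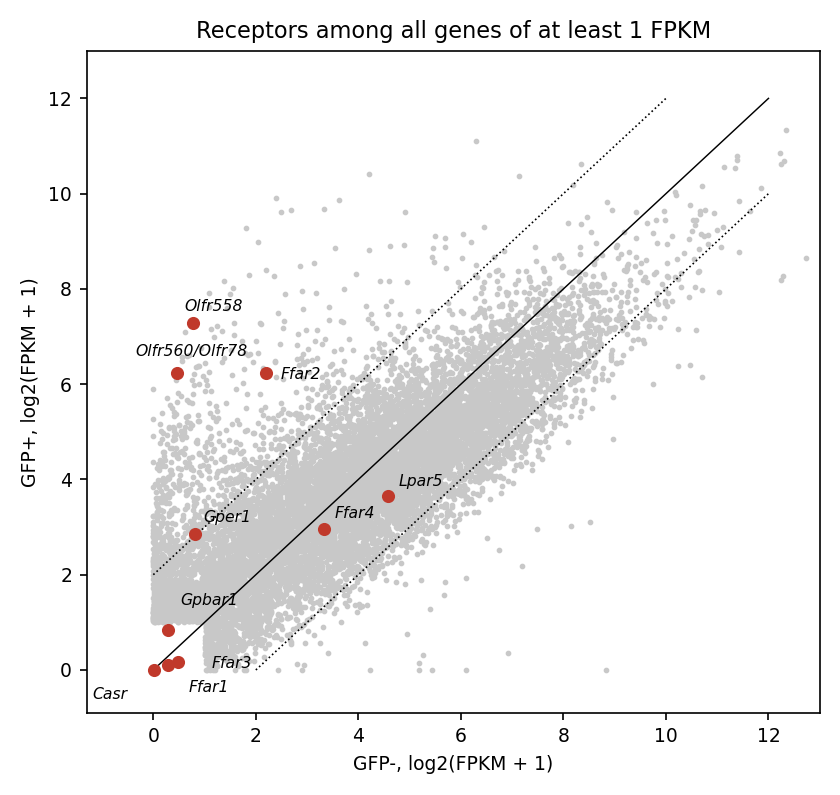
Each grey point is a gene of at least 1 FPKM in either library, by log2(FPKM + 1) in GFP- (horizontal) and GFP+ (vertical); the solid line marks equal levels, the dotted lines a 4-fold difference, and red points the receptors. *Olfr558*, the *Olfr560* and *Olfr78* row and *Ffar2* lie well above the upper dotted line, *Gper1* lies on it, and the other 6 rows lie between the lines.

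Of the 10 members, 9 have a promoter entry in the RefSeq table (GRCm38.p6, the assembly of mm10); *Olfr78* has none. The bases before the start are shown for *Olfr558* and *Ffar2*, which were both far higher in GFP+, and for *Ffar3*, the neighbour of *Ffar2* that was not. The table gives 250 bases before each start. That of *Olfr558* is shown up to the start of the GENCODE M21 gene, which lies further upstream, and *Ffar2* is shown at the outermost of its 4 starts. Motifs are in capitals: CANNTG, bound by basic helix-loop-helix factors, TAATTA, bound by homeodomain factors, TGACGTCA, the cyclic AMP response element, and TATAAA. All were searched on both strands. The windows are chr7:102702073-102702214 (plus strand) for *Olfr558*, chr7:30823776-30824025 (minus strand) for *Ffar2* and chr7:30856179-30856428 (minus strand) for *Ffar3*, each written 5′ to 3′ on the gene's strand.
*Olfr558*: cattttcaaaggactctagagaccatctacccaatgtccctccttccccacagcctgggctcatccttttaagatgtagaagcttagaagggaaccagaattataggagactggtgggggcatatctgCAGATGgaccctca
*Ffar2*: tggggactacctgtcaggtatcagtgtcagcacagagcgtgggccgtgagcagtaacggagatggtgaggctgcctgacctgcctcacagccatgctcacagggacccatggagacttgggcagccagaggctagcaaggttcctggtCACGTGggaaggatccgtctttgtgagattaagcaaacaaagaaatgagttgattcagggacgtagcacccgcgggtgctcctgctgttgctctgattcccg
*Ffar3*: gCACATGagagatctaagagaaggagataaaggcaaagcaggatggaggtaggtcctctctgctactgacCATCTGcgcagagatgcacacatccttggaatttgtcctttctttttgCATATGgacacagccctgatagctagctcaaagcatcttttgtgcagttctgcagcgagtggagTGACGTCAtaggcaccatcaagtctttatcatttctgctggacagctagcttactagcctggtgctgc
*Olfr558* and *Ffar2* hold 1 CANNTG each and *Ffar3* holds 3, and 66.2% of the 32851 promoter windows of 250 bases hold at least 1. TGACGTCA, in 1.55% of windows, occurs once upstream of *Ffar3* and in neither of the others. TAATTA, in 4.84% of windows, and TATAAA, in 12.4%, are in none of these 3. *Gper1* holds 1 CANNTG and 1 TATAAA in the 250 bases before its RefSeq start. The GENCODE M21 gene of *Gper1* begins after 222 of these bases, and all but the first base of this TATAAA lie within it. A match to these letters is a description and not a bound site.

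*Olfr558* had differences of 4.81 to 7.59 over the 4 alternatives, the *Olfr560* and *Olfr78* row 3.88 to 7.28 and *Ffar2* 3.21 to 4.66. These 3 rows passed the 4-fold mark under every scaling and pseudocount tried, and *Gper1* under all but the pseudocount of 5. The number of receptors at least 4-fold higher was 4 with a pseudocount of 0.1, beside 12.8% of all genes, and 3 with a pseudocount of 5, beside 2.97%. It was 4 with the median ratio set to 0, beside 10.8%, and 4 with one total, beside 11.8%. Under these 2 scalings *Gpbar1* also reached 1 FPKM and entered the set. The number was also 4 with no filter on low values, where all 10 rows enter, beside 3.57%. It was 4 among genes of at least 5 FPKM, beside 8.16%. No receptor was at least 4-fold lower under any of these 6 settings, beside 6.82%, 2.65%, 1.51%, 1.09%, 2.32% and 5.82% of all genes in the same order. *Lpar5*, *Ffar3*, *Ffar1* and *Casr* stayed below 0 under all of them, and *Gpbar1* above 0.

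**Figure D4:**
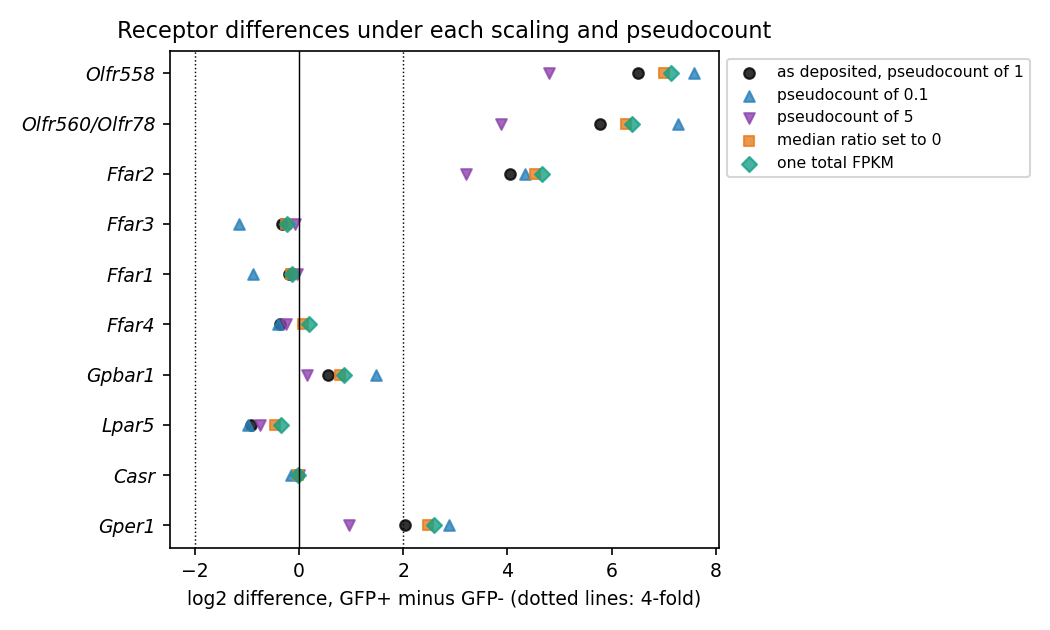
The log2 difference between GFP+ and GFP- for each receptor row as deposited with a pseudocount of 1 (black circle), with a pseudocount of 0.1 or 5 (triangles), with the median ratio of well-expressed genes set to 0 (square) and with one total FPKM (diamond); dotted lines mark 4-fold. *Olfr558*, the *Olfr560* and *Olfr78* row and *Ffar2* stay to the right of the upper line in each, *Gper1* moves from 0.96 to 2.87, and *Ffar4* crosses 0.

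For each of the 6 rows of at least 1 FPKM, the 3 genes closest in level over the 2 libraries were found, by distance in log2(FPKM + 1). With 2 points per gene this shows like levels and nothing more. Closest to *Olfr558* were *Pappa2*, a protease of insulin-like growth factor binding proteins, at 0.648 FPKM in GFP- against 153 in GFP+ (distance 0.05), *Pla2g7*, which breaks down platelet-activating factor, at 0.544 and 135 FPKM (0.24), and *Cwh43* at 1.19 and 143 FPKM (0.38). Closest to the *Olfr560* and *Olfr78* row were the sodium channel gene *Scn3a* at 0.357 and 66.8 FPKM, the albumin gene *Alb* at 0.478 and 88.4 FPKM and the complement gene *C1qa*, known from macrophages, at 0.677 and 66.5 FPKM. Closest to *Ffar2* were *Anxa6*, a calcium-dependent membrane-binding protein, at 3.40 and 80.4 FPKM, *Camk2b*, a calcium/calmodulin-dependent kinase subunit, at 4.26 and 69.8 FPKM, and *Hap1* at 4.21 and 86.9 FPKM. Among the nearest genes were *Pyurf* and *Pdzk1ip1* for *Ffar4*, *Copg2*, *Sult2b1* and *Sirt3* for *Lpar5*, and *Cdc42ep3*, *Gramd1b* and *Diap2* for *Gper1*.

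Other G protein-coupled receptors for metabolites were low in both fractions. Of 17 measured, 4 reached 1 FPKM. None passed the 4-fold mark as deposited with a pseudocount of 1, beside 7.09% of all genes upwards and 4.59% downwards. With a pseudocount of 0.1, *Gpr55*, *Cnr1* and *Gpr142* passed upwards, at 3.27, 3.23 and 2.34, beside 12.8% of all genes. These 3 were below 1 FPKM in GFP- and reached 1 FPKM through their GFP+ value, which fixes their sign. *Gpr55*, a receptor for lysophosphatidylinositol, was at 0.193 FPKM in GFP- against 2.72 in GFP+, a difference of 1.64. It passed the mark under the other scalings, at 2.02 and 2.12, beside 10.8% and 11.8% of all genes. The cannabinoid receptor *Cnr1* was at 0.0709 and 1.50 FPKM and *Gpr142*, a receptor for aromatic amino acids, at 0.152 and 1.17 FPKM. *Gpr35* was at 2.79 FPKM in GFP- against 0.745 in GFP+. The lipid receptor *Gpr119* and the niacin receptor *Hcar2* stayed just below 1 FPKM in GFP+, at 0.934 and 0.963 FPKM.

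The signalling genes through which such receptors act held several genes with large differences. In the Gs and cyclic AMP list, 16 genes reached 1 FPKM, and 4 of these passed the 4-fold mark upwards and 0 downwards, with a median of 0.73. They were the adenylyl cyclases *Adcy8*, at 0.573 FPKM in GFP- against 49.5 in GFP+, and *Adcy1*, at 0.0327 and 5.20 FPKM, the protein kinase A subunit *Prkar1b*, at 0.439 and 22.7 FPKM, and the cyclic AMP-activated exchange factor *Rapgef4*, at 0.743 and 10.1 FPKM. All 4 were below 1 FPKM in GFP-. In all, 7 of the 16 genes were below 1 FPKM in GFP- and passed through their GFP+ value, which fixes their sign. With a pseudocount of 5 the count past the mark was 2, without *Adcy1* at 1.02 and *Rapgef4* at 1.39, and with a pseudocount of 0.1 it was 6. The kinase subunit *Prkacb*, at 1.85 as deposited, passed under the other scalings at 2.33 and 2.44, for a count of 5. Of all genes, 7.09% passed upwards and 4.59% downwards as deposited. The upward shares were 2.97% and 12.8% with pseudocounts of 5 and 0.1, and 10.8% and 11.8% under the scalings. *Gnas*, the Gs alpha subunit, was at 538 and 400 FPKM.

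Of 5 Gi and Go alpha subunit genes, 2 were at least 4-fold higher and 0 lower, with a median of 0.44. Both higher genes were below 1 FPKM in GFP-, which fixes their sign. Beside the counts in this paragraph, 7.09% of all genes passed upwards and 4.59% downwards as deposited. The upward shares were 10.8% and 11.8% under the scalings, and 12.8% and 2.97% with pseudocounts of 0.1 and 5. *Gnao1* was at 0.322 FPKM in GFP- against 31.4 in GFP+, and *Gnaz* at 0.522 and 30.6 FPKM, while *Gnai2* and *Gnai3* had differences of 0.29 and 0.44. Of 10 genes of the Gq and calcium release list, 1 was higher and 0 lower, with a median of 0.98. The 1 of 10 is near the share over all genes. Of these 10, 5 were below 1 FPKM in GFP- and passed through their GFP+ value, which fixes their sign. The gene past the mark was the inositol trisphosphate receptor *Itpr3* (a row joined with *Mir7677*), at 9.23 FPKM in GFP- against 122 in GFP+. *Itpr1* had 1.82 and passed under the other scalings, at 2.25 and 2.36, which made the count of higher genes 2, and that count was 4 with a pseudocount of 0.1. In the same list, *Gna11* and *Plcb3* had -1.37 and -0.90. Among 5 receptor kinases and arrestins, *Adrbk2* passed the mark, at 1.60 and 21.1 FPKM, but not with a pseudocount of 5, where it had 1.98. *Grk6* had -1.40, and the list median was 0.36.

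Among the genes that carry odorant receptors to the surface and signal for them in the nose, levels were uneven. *Rtp1*, *Rtp2*, *Cnga2* and *Ano2* were listed at 0 in both libraries, and *Adcy3* was at 0.128 FPKM in GFP- against 0.133 in GFP+. Of the 19 genes measured, 7 reached 1 FPKM. As deposited, 0 of these passed the 4-fold mark, beside 7.09% of all genes upwards and 4.59% downwards. *Reep5* had the largest difference, 1.84, at 3.78 and 16.2 FPKM. It passed the mark under the other scalings, at 2.32 and 2.44, beside 10.8% and 11.8% of all genes upwards. The olfactory alpha subunit *Gnal* was at 1.48 and 1.52 FPKM, the olfactory marker gene *Omp* at 0.259 and 0.440 FPKM and the olfactory channel subunit *Cnga4* at 0.149 and 0.902 FPKM, and the G protein gamma subunit *Gng13*, also known from tuft cells, at 0.974 FPKM in GFP- and listed at 0 in GFP+.

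Transport and nuclear sensing of the same metabolites showed no gene 4-fold higher in GFP+ with a pseudocount of 1, beside 7.09% of all genes as deposited. With a pseudocount of 0.1, the monocarboxylate transport gene *Emb* passed at 2.05, beside 12.8% of all genes. It was at 0.340 FPKM in GFP- against 1.73 in GFP+. All 14 nuclear and cytosolic sensors of at least 1 FPKM were below 0 as deposited, with a median of -0.70, but 5 and 7 of them were above 0 under the other scalings. *Pparg*, a fatty acid-activated nuclear receptor, was the one gene past the mark, at 35.7 FPKM in GFP- against 7.51 in GFP+, and it did not pass under either other scaling. The bile acid receptor of the nucleus, *Nr1h4*, was at 26.8 and 22.2 FPKM. Among 4 genes of monocarboxylate transport, *Slc16a1*, which carries short-chain fatty acids and lactate, was at 86.2 FPKM in GFP- against 29.3 in GFP+, *Slc16a3* at 99.5 and 156 FPKM, and the list median was 0.03. Of 3 bile acid carriers, *Slc51a* was at 30.3 and 7.43 FPKM, a difference of -1.89. Of 8 genes of long-chain fatty acid uptake, *Fabp1* and *Fabp2* were at least 4-fold lower, at -2.20 and -2.12, and neither was under the other scalings.

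**Figure D5:**
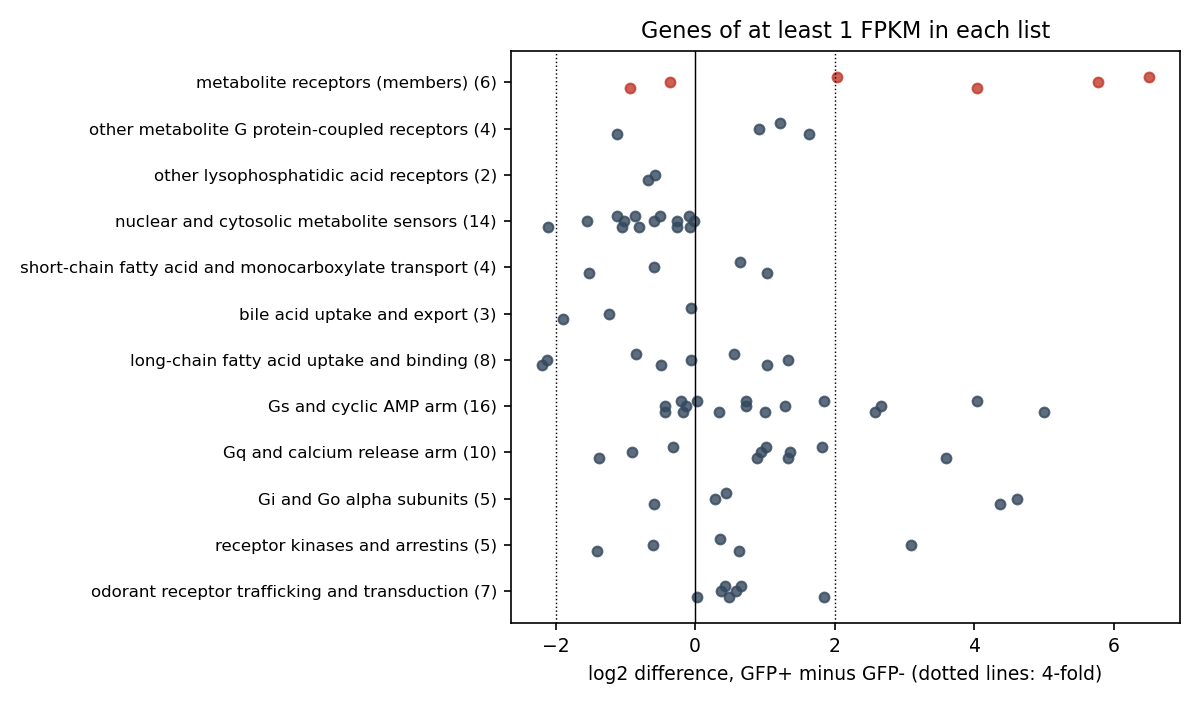
The log2 difference between GFP+ and GFP- of each gene of at least 1 FPKM in the receptor set (red) and in 11 lists of related genes (dark), with the number of genes in brackets and dotted lines at 4-fold; vertical spread within a list only separates points. The large positive differences lie among the receptors and in the Gs, Gq, Gi and Go, and receptor kinase lists, and all 14 nuclear sensors lie below 0 as deposited.

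The sorted fractions differed in marker genes as follows. *Chga* and *Chgb* had no estimate in GFP+, being 2 of 5 rows with too many fragments, so the reporter gene gave no ratio. All 7 other enterochromaffin markers were at least 4-fold higher in GFP+, with ratios from 6.29 for *Ddc* to 163 for *Ucn3*, below those of *Olfr558* and the *Olfr560* and *Olfr78* row. Their summed level was 193 FPKM in GFP- against 5420 in GFP+, with none at 0. Of 8 markers of other endocrine cells, 4 were at least 4-fold lower and *Gast* higher, with sums of 581 and 193 FPKM. The 9 tuft cell markers summed to 20.1 FPKM and 6.49 FPKM, and *Rgs13* was at least 4-fold lower as deposited. The sums were 3180 and 1357 FPKM for 8 goblet cell markers, 17546 and 1069 FPKM for 8 Paneth cell markers, 3538 and 1677 FPKM for 8 enterocyte markers and 1423 and 399 FPKM for 6 stem cell markers. As deposited, at least 4-fold lower were all 8 Paneth markers, and 2 markers each of goblet cells, enterocytes and stem cells. Of all genes, 4.59% were at least 4-fold lower and 7.09% at least 4-fold higher as deposited. The enterocyte markers went both ways, with 4 above 0, 4 below and a median of 0.04. Of 7 goblet cell markers of at least 1 FPKM, 2 were above 0 and 5 below, with a median of -0.43. The rescaled medians were 0.54 and 0.66 for enterocytes and 0.06 and 0.18 for goblet cells. In GFP-, *Fabp1* held 2157 FPKM of the enterocyte sum and *Spink4* 1535 FPKM of the goblet sum, against 470 and 139 in GFP+. Under both other scalings the mark was no longer passed by the Paneth marker *Mmp7* (-1.74 and -1.62), the enterocyte markers *Fabp1* and *Fabp2*, the stem cell marker *Olfm4* (-1.53 and -1.41) or *Rgs13* (-1.95 and -1.89). The 10 non-epithelial markers summed to 1.01 FPKM in GFP- against 17.4 in GFP+, of which *Pecam1* held 10.4 FPKM and was the one past the 4-fold mark with a pseudocount of 1. All 4 that reached 1 FPKM were higher in GFP+, but all 4 were below 1 FPKM in GFP-, which fixes that direction. The collagen gene *Col1a1* was at 0.0106 FPKM in GFP- against 1.56 in GFP+, *Col3a1* at 0.00593 and 1.61 FPKM, and the macrophage marker *Cd68* was at 0.595 and 2.71 FPKM. With a pseudocount of 0.1 these 3 also passed, at 3.91, 4.01 and 2.02, beside 12.8% of all genes upwards. With a pseudocount of 5 *Pecam1* did not pass, at 1.57, beside 2.97% of all genes. The leukocyte marker *Ptprc* was at 0.0224 FPKM in both libraries. The part of these other cells in the receptor values was not tested.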

How the data were processed

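RNA of 1 GFP- and 1 GFP+ library was analysed from the deposited FPKM tables, whose unit is given per the file headers. FastQC, TopHat2 0.7, Cufflinks, Cuffdiff and the mm10 genome are named per the submitters' processing notes. The sources used here do not name the annotation, the library scaling or the treatment of reads with several positions. Of 23793 rows, the 5 that Cuffdiff marked HIDATA in GFP+ were left out as not estimated. FPKM was summed per symbol, and a gene was compared where it reached 1 FPKM in either library, with a pseudocount of 1. No test was run, since each fraction has 1 library.

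The value of 1 fragment was fitted on the lowest step of 884 single-exon odorant receptor rows whose locus equals the RefSeq gene (GRCm38.p6). All of the 36 rows above 0 in GFP- and 99.2% of 121 in GFP+ were then whole numbers within 0.02 fragments. The fit was tested on simulated data. Member lengths are GENCODE M21 exons within the listed locus, and a single fragment number is given where one model gave whole numbers in both libraries. Its interval is exact Poisson, and that of a ratio exact binomial (Clopper-Pearson). Starts were shifted to count from 1.

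Named genes are the 10 members, up to 4 genes per list by size of difference, odorant rows of at least 1 FPKM and the 3 nearest genes per member. One of these nearest genes is not reported here. Further list genes, such as *Gnas* and *Gnal*, and the odorant rows near *Olfr558* were added after their values were seen. The members and lists were chosen with earlier results of these data known. Alternatives were pseudocounts of 0.1 and 5, 2 scalings and other filters. Python 3.11.15, pandas 2.3.3, scipy 1.17.1 and biopython 1.88 were used.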

Additional observations from a re-analysis of the deposited data

How the results depend on the processing

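Of the 66 recomputed values for the receptors and the summed list counts, 60 stayed on their side of the 4-fold mark, or within 1.5 times for a count. Among these 60, *Ffar4*, which passed under no setting, changed sign from -0.36 to 0.08 with the median ratio set to 0 and to 0.19 with one total FPKM. With a pseudocount of 5, *Gper1* had a difference of 0.96 and no longer passed. The median over the receptors was 0.27 with no filter on low values, where the rows below 1 FPKM enter. The number of related pathway genes at least 4-fold higher was 8 as deposited, 18 with a pseudocount of 0.1 and 5 with a pseudocount of 5. It was 12 with the median ratio set to 0 and 12 with one total FPKM. As deposited, the 11 lists held 4, 2, 14, 4, 3, 8, 16, 10, 5, 5 and 7 genes of at least 1 FPKM. *Gnal* is in both the Gs list and the odorant receptor trafficking list. These summed counts are to be read against the shares over all genes given below. Counts for single lists were less stable: of 88 recomputed, 70 stayed within 1.5 times and 18 did not. The number at least 4-fold lower was 3 as deposited and 0 with the median ratio set to 0 and 0 with one total FPKM. Over all genes, the share at least 4-fold higher was 7.09% as deposited, 12.8% and 2.97% with pseudocounts of 0.1 and 5, and 10.8% and 11.8% under the 2 scalings, and the share at least 4-fold lower was 4.59%, 6.82%, 2.65%, 1.51% and 1.09%. The number of genes behind these shares was 841 higher as deposited, 1524 and 353 with the pseudocounts, and 1317 and 1448 under the scalings, and 545 lower as deposited, 809 and 315 with the pseudocounts, and 184 and 133 under the scalings. No paired analysis was possible because each fraction has 1 library. Depth limits *Casr* and *Ffar1*, with at most 9 fragments in either library.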

Other observations

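Fragments were spread over more odorant receptor genes in GFP+ than in GFP-. Of 884 single-exon odorant receptor rows, 121 were above 0 in GFP+ and 36 in GFP-, with summed fragments of 376 and 51. The median number of fragments in a row above 0 was 2 in GFP+ and 1 in GFP-, and 51 and 29 rows held 1 fragment. The highest row in GFP- had 5 fragments, and the highest in GFP+ was *Olfr561* with 56. These are values of 2 libraries, and their source was not tested.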
